A study of Mus musculus with 2 samples.

Results

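Cytochrome P450 families 1 to 4 comprise the heme enzymes that oxidise drugs, toxins, steroids, bile acid precursors and fatty acids in the liver. The members were the protein-coding genes whose symbol is Cyp, a family number from 1 to 4, a subfamily letter and a gene number, which gave 75 of the 43346 Ensembl genes in the tables and of the 21474 that are protein-coding. Family 2 supplied 48 members, family 4 supplied 17, family 3 supplied 7 and family 1 supplied 3. RNA was sequenced from 1 group of 2 newborn B6NCrl mice (postnatal age 0 days), an inbred line with no engineered allele or treatment in the labels, with the whole liver of each pup as 1 library. Both pups (pup 1 and pup 2) were born to 1 dam and their sex was not collected. The total RNA-seq libraries were made from 10 ng of RNA over 200 nt, with ERCC spike-in RNAs added, and held 42124582 expected counts in pup 1 and 41443673 in pup 2.

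These enzymes sit in the endoplasmic reticulum, bind oxygen at a heme iron and take electrons from P450 reductase and cytochrome b5. Many enzymes of families 1, 2 and 3 act on foreign compounds and steroids. Several of their genes are switched on by the receptors AhR, CAR and PXR. The Cyp4a and Cyp4f enzymes hydroxylate the far end of fatty acids and leukotrienes, the former under the control of the receptor PPAR-alpha. In rodent liver many of these genes change around birth, at weaning and at puberty, and several differ between adult males and females. Most lie in tandem clusters of close copies, so a newborn liver can be described by which copies of a cluster carry RNA.

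Both libraries held liver RNA, since all 5 hepatocyte markers (Alb, Apoa1, Ttr, Ahsg and Serpina1a) were detected, with a summed level of 67791 TPM in pup 1 and 65055 TPM in pup 2. TPM is a level corrected for transcript length and scaled to the same total in each library. Markers of blood-forming tissue were abundant in both, the 6 neutrophil genes summing to 8767 and 9036 TPM. Other tissues differed between the libraries. The 6 striated muscle markers summed to 50.2 TPM in pup 1 and 758 TPM in pup 2, the 6 pancreas markers to 2.12 and 105 TPM, and the 6 lung markers to 2.88 and 17.9 TPM, while all 6 kidney markers were at 0 in both livers. In whole-liver RNA, fewer cells of a type and less RNA per cell cannot be told apart.

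Of the 75 members, 44 reached 1 TPM in both livers and are called detected, against a background of 52.9% of all protein-coding genes. Another 2 members reached 1 TPM in 1 liver only, 19 had counts but stayed below 1 TPM in both, and 10 had 0 counts in both livers, where 21.1% of protein-coding genes had none. The 75 members together held 0.529% ± 0.0393 of TPM (SD, n = 2), with sums of 5012 TPM in pup 1 and 5567 TPM in pup 2. They held 0.862% of expected counts, which weight long transcripts more. A small number of genes carried most of this RNA. The most abundant member held 15.8% of the members' TPM, the top 5 held 57.8% and the top 20 held 94.4%. A level of 10 TPM in both livers was reached by 29 members, 100 TPM by 12 and 500 TPM by 3.

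**Figure D1:**
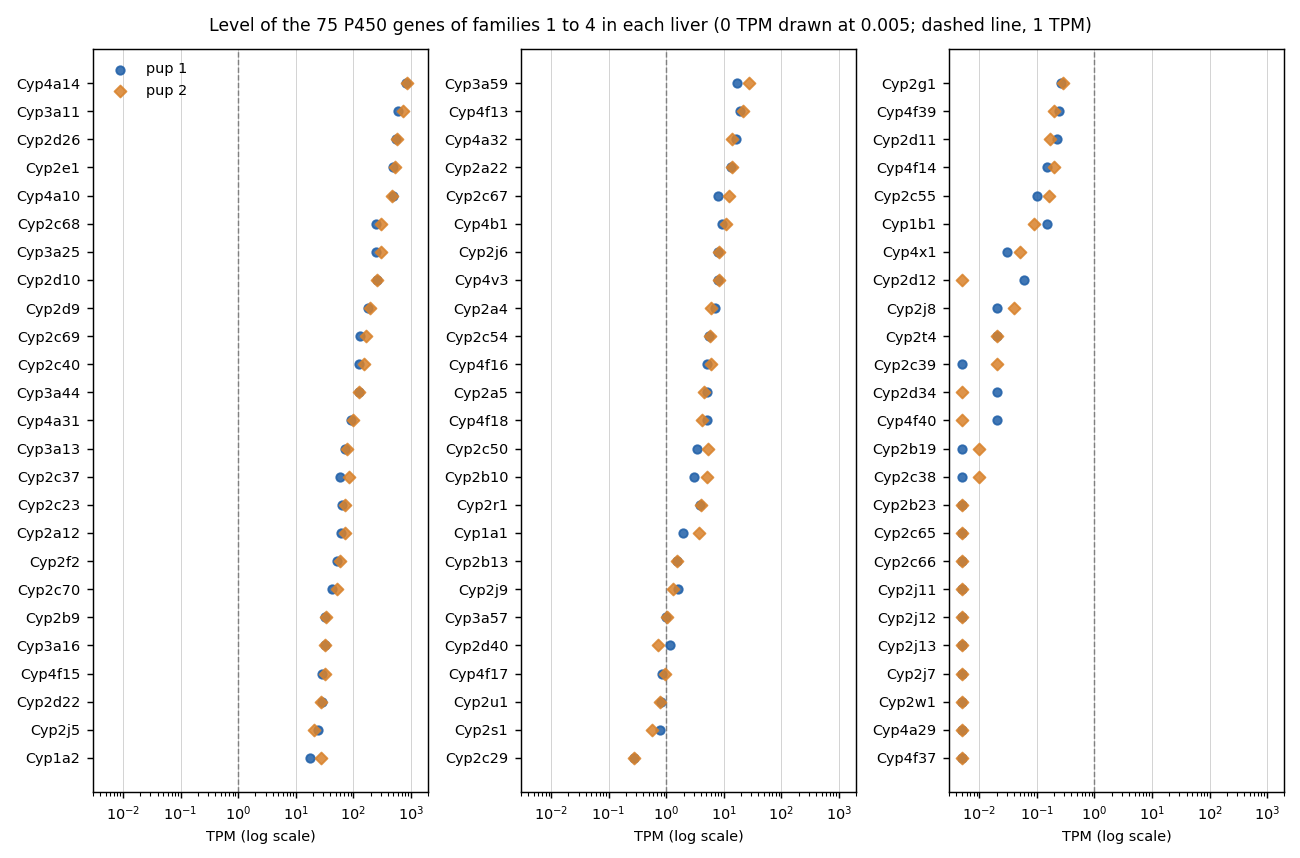
TPM of each of the 75 members in pup 1 (circles) and pup 2 (diamonds) on a log axis, in 3 columns ordered by mean level, with 0 TPM drawn at 0.005 and a dashed line at 1 TPM. The levels run from 837 TPM for Cyp4a14 down to 10 members at 0, and the symbols of both livers nearly coincide for most of the 44 detected members.

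The fatty acid hydroxylases of the Cyp4a subfamily formed the most abundant group of the members, at 1431 ± 22.5 TPM for 5 members, of which 4 were detected. With the protein-coding genes that the symbol rule leaves out, Cyp4a came to 1421 TPM in pup 1 and 1455 in pup 2 and Cyp3a to 1299 and 1479, so Cyp3a was then the higher in pup 2. Cyp4a14 (chromosome 4, 115486200 to 115496142), an omega-hydroxylase and PPAR-alpha target, was the highest member of all, at 819 TPM (pup 1) and 856 TPM (pup 2). Cyp4a10 (chromosome 4, 115518264 to 115533649), its neighbour with the same activity, stood at 487 and 479 TPM. The log2 ratio of Cyp4a14 to Cyp4a10 was 0.79 ± 0.06 (SD, n = 2), larger than the spread between the livers by the rule that both livers lie on 1 side of 0 and the mean is over 3 SD from 0. Cyp4a31 stood at 93.1 and 98.5 TPM and Cyp4a32 at 16.1 and 13.9 TPM, while Cyp4a29 had no counts. Ppara, the receptor of this group, was at 161 and 145 TPM, the highest of the 20 listed regulators of P450 genes.

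The Cyp3a subfamily held 1202 ± 159 TPM, with 6 of 7 members detected. Cyp3a11 (chromosome 5, 145854426 to 145879964), the main adult drug-oxidising Cyp3a enzyme and a PXR target, was at 595 TPM (pup 1) and 745 TPM (pup 2). It supplied 55.7% of the TPM of the 7 members, or 48.2% when Cyp3a41a and Cyp3a41b, which the symbol rule leaves out, are added. Cyp3a16, described in mouse as a perinatal form, was at 32.1 and 32 TPM, so Cyp3a11 exceeded it by a log2 ratio of 4.37 ± 0.23. Cyp3a25 was at 246 and 306 TPM, Cyp3a44 at 128 and 126 TPM, Cyp3a13 at 71.3 and 77.6 TPM and Cyp3a59 at 16.9 and 27.1 TPM. The log2 ratio of Cyp3a11 was 1.28 ± 0.01 to Cyp3a25 and 3.16 ± 0.14 to Cyp3a13, both larger than the spread. Cyp3a57 lay at the detection threshold, at 0.97 and 1.03 TPM.

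The Cyp2d subfamily held 1035 ± 31.3 TPM, and 4 of its 8 members were detected. Cyp2d26 (chromosome 15, 82790101 to 82794294) led it with 544 TPM (pup 1) and 568 TPM (pup 2), and Cyp2d10 followed with 262 and 263 TPM. Cyp2d9, a testosterone 16-alpha-hydroxylase that is male-predominant in adult liver, was at 178 and 198 TPM. Cyp2d22, often set beside the human drug enzyme CYP2D6, was lower at 28.3 and 27.1 TPM, a log2 ratio of Cyp2d26 to Cyp2d22 of 4.32 ± 0.09. Cyp2d10 exceeded Cyp2d9 by a log2 ratio of 0.48 ± 0.10. Cyp2d40 was above 1 TPM in pup 1 only, at 1.16 and 0.71 TPM, and Cyp2d11, Cyp2d12 and Cyp2d34 lay below 1 TPM in both livers.

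The Cyp2c subfamily, the one with the most members, held 780 ± 116 TPM over 15 genes, of which 9 were detected. Its leading genes were Cyp2c68 (chromosome 19, 39688834 to 39741054) at 253 TPM (pup 1) and 306 TPM (pup 2), Cyp2c69 at 132 and 167 TPM, and Cyp2c40 at 128 and 155 TPM. The division of reads among them is uncertain: 35.4% of the 100-base windows of Cyp2c69, 34.4% of those of Cyp2c40, 23.7% of those of Cyp2c67 and 19.8% of those of Cyp2c68 also occur in another gene. Cyp2c37 was at 59 and 85.5 TPM and Cyp2c23, an arachidonic acid epoxygenase, at 64.6 and 72 TPM. Cyp2c70, which makes the muricholic acids of mouse bile, was at 43.6 and 51.7 TPM. Cyp2c29, a CAR target that is prominent in adult liver, was at 0.28 and 0.27 TPM, from 17 and 16 counts. The log2 ratio of Cyp2c70 to Cyp2c29 was 6.99 ± 0.20, the widest of the 17 gene pairs compared, all of which were larger than the spread.

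Cyp2e1 (chromosome 7, 140763739 to 140774987), which oxidises ethanol, ketones and paracetamol, is the only gene of its subfamily and was at 482.5 TPM (pup 1) and 541 TPM (pup 2). Cyp1a2, another enzyme of the pericentral zone in adult liver, was at 17.9 and 27.1 TPM, a log2 ratio of Cyp2e1 to Cyp1a2 of 4.53 ± 0.30. Cyp2f2, a periportal enzyme in adult mouse liver that also activates naphthalene in lung, was at 52.1 and 58.1 TPM. Cyp2e1 exceeded it by a log2 ratio of 3.21 ± 0.01. The lung markers, whose sum was also higher in pup 2, included Sftpc at 1.52 and 12.1 TPM and Scgb1a1, a marker of the club cells that express Cyp2f2, at 0.75 and 3.26 TPM. These were the only lung markers with a mean of 1 TPM or more, and both were at least 2-fold apart. Their part in the level of Cyp2f2 or of Cyp4b1 was not tested. Cyp4b1, abundant in lung, was at 9.25 and 11 TPM.

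**Figure D2:**
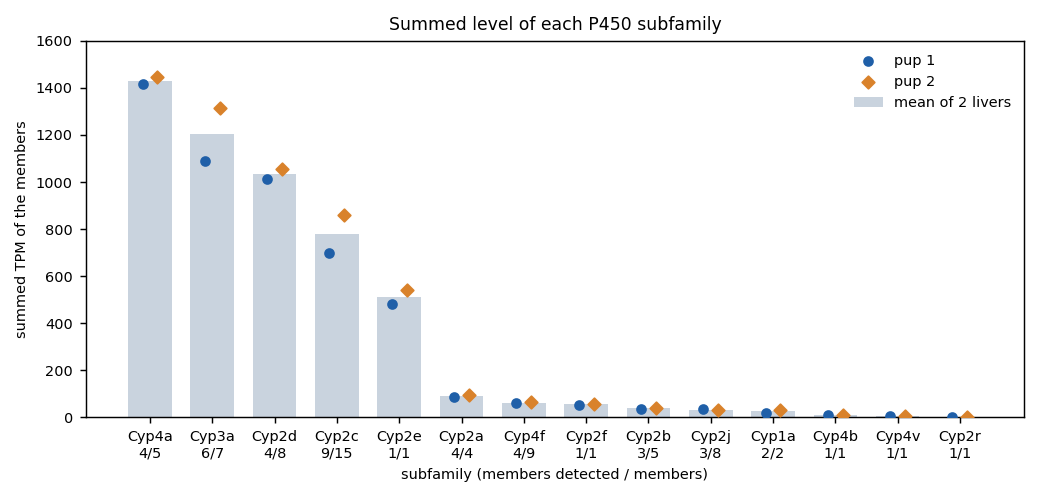
Summed TPM of each of the 14 subfamilies with at least 1 detected member, as the mean of the 2 livers (bars) with pup 1 (circles) and pup 2 (diamonds); the numbers under each name give the members detected and the members in all. Cyp4a, Cyp3a, Cyp2d, Cyp2c and Cyp2e stand at 512 TPM or more and the others at 92 TPM or less.

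The remaining subfamilies were each at 92 TPM or less. Cyp2a held 92 ± 5.83 TPM with all 4 members detected, led by Cyp2a12 at 62.3 TPM (pup 1) and 72.1 TPM (pup 2). Cyp2a4, a testosterone 15-alpha-hydroxylase, was at 7.02 and 5.87 TPM, and Cyp2a5, a coumarin 7-hydroxylase, at 5.07 and 4.55 TPM. The log2 ratio of Cyp2a5 to Cyp2a4 was -0.41 ± 0.07, but 12.1% of the windows of Cyp2a5 and 11.2% of those of Cyp2a4 are shared, and the ratio no longer passed the spread rule on posterior mean TPM (-0.18) or on expected counts (-0.28). Cyp2a12 exceeded Cyp2a5 by a log2 ratio of 3.77 ± 0.26. Cyp2b held 39 ± 2.31 TPM. Cyp2b9, female-predominant in adult mice, was at 32.8 and 34 TPM and supplied 85.7% of it. Cyp2b10, the classic CAR target, was at 3.02 and 5.04 TPM, a log2 ratio of Cyp2b10 to Cyp2b9 of -3.06 ± 0.47. Cyp2b13 was at 1.55 and 1.54 TPM, just above the threshold.

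Cyp4f held 62.6 ± 4.02 TPM, and 4 of its 9 members were detected. Cyp4f15 was at 29 TPM (pup 1) and 32.3 TPM (pup 2), and Cyp4f13 at 19.2 and 21.6 TPM. Cyp4f14, a leukotriene B4 omega-hydroxylase, was at 0.15 and 0.20 TPM, a log2 ratio of Cyp4f14 to Cyp4f13 of -6.23 ± 0.07. Cyp4f18, the leukotriene B4 hydroxylase of mouse neutrophils, was at 5.06 and 4.16 TPM, in libraries where S100a8, a neutrophil marker, was at 4438 and 4606 TPM. The part of neutrophil RNA in the level of Cyp4f18 was not tested. Cyp4f18 exceeded Cyp4f14 by a log2 ratio of 4.10 ± 0.38.

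Cyp2j, a subfamily of arachidonic acid epoxygenases, held 32.4 ± 2.06 TPM from 3 of 8 members. Cyp2j5 was at 24.2 TPM (pup 1) and 21.2 TPM (pup 2), above Cyp2j6 at 8.04 and 8.37 TPM by a log2 ratio of 1.46 ± 0.18, and Cyp2j9 was at 1.58 and 1.32 TPM. Cyp2r1, a vitamin D 25-hydroxylase, was at 3.79 and 3.96 TPM, and exceeded Cyp2u1, a fatty acid hydroxylase known from brain and thymus, by a log2 ratio of 2.16 ± 0.09. Cyp4v3, the mouse counterpart of human CYP4V2, was at 7.79 and 8.09 TPM.

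Family 1 was the smallest. Cyp1a2 supplied 88.8% of the 25.3 ± 7.78 TPM of the Cyp1a subfamily. Cyp1a1, the most inducible AhR target, was at 1.92 TPM (pup 1) and 3.75 TPM (pup 2), and Cyp1a2 exceeded it by a log2 ratio of 2.99 ± 0.24. Cyp1b1, found mostly outside the liver, was at 0.15 and 0.09 TPM. Ahr itself was at 5.45 and 3.15 TPM.

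The order of abundance was partly fixed by these data. Among the 15 most abundant members there are 14 neighbouring pairs, and in 8 of them the levels of both livers were apart. Cyp2e1 and Cyp4a10 changed places between the livers, as did Cyp3a25 and Cyp2d10, Cyp2c40 and Cyp3a44, and Cyp3a13 and Cyp2c37. Over all 43 neighbouring pairs of the 44 detected members, 23 had ranges that did not overlap.

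Just above the detection threshold, by the lower of both livers, were Cyp2j9, Cyp2b13, Cyp1a1, Cyp2b10 and Cyp2c50 (3.44 and 5.36 TPM). The authors' lower credible bounds for these were all over 1 TPM. The lowest was 1.06 TPM for Cyp2j9 in pup 2, where it had 95 counts. Just below the threshold were Cyp3a57, Cyp4f17 (0.86 and 0.95 TPM), Cyp2u1 (0.81 and 0.77 TPM), Cyp2d40 and Cyp2s1 (0.78 and 0.57 TPM). The authors' credible interval of TPM for Cyp2u1 ran from 0.621 to 1.01 in pup 1 and from 0.590 to 0.968 in pup 2, so in pup 1 it reached the threshold. For Cyp3a57, Cyp4f17, Cyp2d40 and Cyp2s1 the interval held 1 TPM in both livers. The lowest of their upper bounds was 1.002 TPM, for Cyp2d40 in pup 2. Of the 19 members below 1 TPM in both livers, 7 had no more than 3 expected counts in each liver, and Cyp2s1 had the most with 67. The 10 members with 0 counts were Cyp2b23, Cyp2c65, Cyp2c66, Cyp2j7, Cyp2j11, Cyp2j12, Cyp2j13, Cyp2w1, Cyp4a29 and Cyp4f37. A count of 0 allows up to 3 counts, which for these genes came to between 0.0329 and 0.0597 TPM, and the authors' upper credible bounds lay between 0.0346 and 0.183 TPM.

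Detected and silent members lay in blocks within some clusters. In the Cyp2c cluster (chr19:39007019-40187333) the first 6 members in genome order, Cyp2c55, Cyp2c65, Cyp2c66, Cyp2c29, Cyp2c38 and Cyp2c39, were all below 1 TPM in both livers. The next 8, from Cyp2c67 to Cyp2c70, were all detected. In the Cyp2j cluster (chr4:96027534-96664154) the first 5 members were below 1 TPM, 4 of them at 0 counts, and the last 3 (Cyp2j6, Cyp2j9 and Cyp2j5) were detected. Among the members of the Cyp3a cluster (chr5:145345279-146113287) the mean was 1 TPM at Cyp3a57 at 1 end and 22 TPM at Cyp3a59 at the other. The peak lay between them, with 670 TPM at Cyp3a11. The rule on symbols leaves out Cyp3a41b (1.66 TPM) and Cyp3a41a (185 TPM), which lie between Cyp3a16 and Cyp3a44, so the rise to the peak was not even. Other clusters alternated. In the Cyp2d cluster (chr15:82370527-82794294) Cyp2d11 at 0.195 TPM stood between Cyp2d22 at 27.7 TPM and Cyp2d10 at 262 TPM. In the Cyp4f cluster of chromosome 17 (chr17:32452723-32947402) Cyp4f14 at 0.175 TPM stood between Cyp4f15 at 30.7 TPM and Cyp4f13 at 20.4 TPM. The mixed cluster of chromosome 7 (chr7:25802475-27158668) held 13 members of 6 subfamilies, 8 of them detected.

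**Figure D3:**
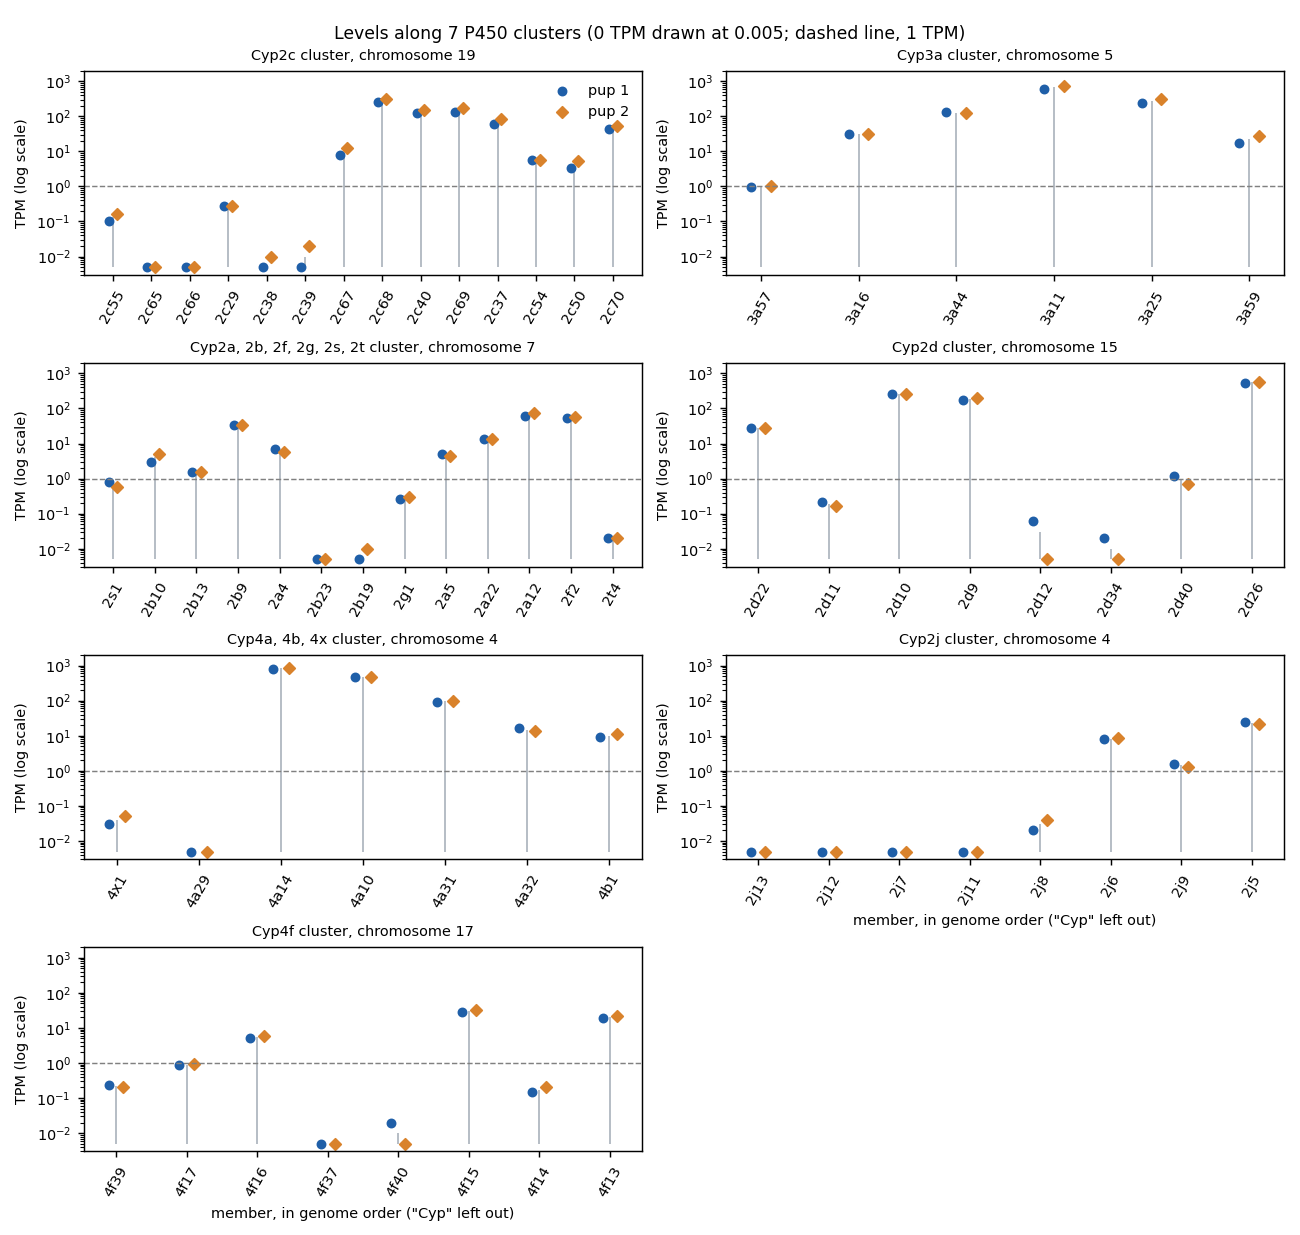
TPM of the members of 7 clusters in genome order (horizontal axis) on a log axis, with pup 1 as circles, pup 2 as diamonds, a line to the mean, 0 TPM drawn at 0.005 and a dashed line at 1 TPM. The first 6 members of the Cyp2c cluster lie below 1 TPM and the next 8 above it. In the Cyp2d and Cyp4f clusters detected and undetected members are interspersed.

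Close copies with nearly the same promoter could differ widely in level. RefSeq promoter windows of 300 bases, 250 before and 50 after the annotated start, were matched to 62 of the 75 members. Of 176 pairs of members within a subfamily, 7 had at least 90% identical bases, and 4 of these 7 differed by over 10-fold in mean TPM. These 4 are not independent, since Cyp3a25, Cyp3a59 and Cyp3a57 recur in them. Differences over 10-fold also occurred among pairs with less similar promoters, such as 63.5-fold for Cyp2c68 and Cyp2c50 at 60% identity. The share of such differences at lower identity is not given here, so the count is not read as a trait of close promoters. The closest match was that of Cyp2b9 and Cyp2b13, with 298 of 300 bases identical and 33.4 against 1.55 TPM, a 21.6-fold difference that was 21.1-fold in pup 1 and 22.1-fold in pup 2. Reads of these copies can be told apart over most of their length, since 1.18% of the 100-base windows of Cyp2b9 occur in another gene. For Cyp2b13 the share was 9.29%, mostly with the gene Gm45225. The windows below were chosen after these levels were known, because they show how little the sequence differs. They come from RefSeq on GRCm38.p6 and run 5′ to 3′ on the coding strand, for Cyp2b9 (chr7:26173159-26173458, plus strand) and Cyp2b13 (chr7:26061245-26061544, plus strand). Capitals mark the bases of Cyp2b13 that differ from Cyp2b9.
Cyp2b9: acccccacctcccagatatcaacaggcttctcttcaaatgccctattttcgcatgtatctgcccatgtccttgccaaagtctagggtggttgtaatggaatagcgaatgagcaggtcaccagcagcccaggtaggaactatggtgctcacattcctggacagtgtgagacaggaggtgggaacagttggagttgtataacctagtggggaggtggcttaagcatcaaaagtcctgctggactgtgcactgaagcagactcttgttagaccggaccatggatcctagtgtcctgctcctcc
Cyp2b13: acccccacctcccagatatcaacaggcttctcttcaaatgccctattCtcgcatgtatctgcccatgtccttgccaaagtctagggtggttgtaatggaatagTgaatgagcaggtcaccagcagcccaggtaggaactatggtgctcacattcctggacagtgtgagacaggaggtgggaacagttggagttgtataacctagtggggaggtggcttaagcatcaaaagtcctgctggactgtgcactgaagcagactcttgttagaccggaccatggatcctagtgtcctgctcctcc

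Cyp3a copies of the same cluster showed a wider range, with 276 TPM for Cyp3a25, 22 TPM for Cyp3a59 and 1 TPM for Cyp3a57 as means. Cyp3a25 and Cyp3a59 share 289 of 300 promoter bases and differed 12.6-fold, 14.6-fold in pup 1 and 11.3-fold in pup 2. Cyp3a25 and Cyp3a57 share 270 bases and differed 276-fold. Cyp3a59 and Cyp3a57 share 275 bases and differed 22-fold. No 100-base window of Cyp3a57 occurs in another gene, and the share was 6.79% for Cyp3a25 and 7.39% for Cyp3a59. The windows are those of Cyp3a25 (chr5:146009568-146009867, minus strand), Cyp3a59 (chr5:146079008-146079307, plus strand) and Cyp3a57 (chr5:145345019-145345318, plus strand), shown to let most of their differences be read off. Capitals mark the bases of Cyp3a59 and Cyp3a57 that differ from Cyp3a25 or are inserted. Bases of Cyp3a25 that are missing from Cyp3a57 are not marked.
Cyp3a25: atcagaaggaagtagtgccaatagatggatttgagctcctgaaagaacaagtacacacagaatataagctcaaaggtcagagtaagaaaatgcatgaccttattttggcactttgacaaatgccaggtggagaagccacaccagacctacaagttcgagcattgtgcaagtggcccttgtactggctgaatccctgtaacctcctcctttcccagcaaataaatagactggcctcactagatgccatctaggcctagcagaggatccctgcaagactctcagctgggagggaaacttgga
Cyp3a59: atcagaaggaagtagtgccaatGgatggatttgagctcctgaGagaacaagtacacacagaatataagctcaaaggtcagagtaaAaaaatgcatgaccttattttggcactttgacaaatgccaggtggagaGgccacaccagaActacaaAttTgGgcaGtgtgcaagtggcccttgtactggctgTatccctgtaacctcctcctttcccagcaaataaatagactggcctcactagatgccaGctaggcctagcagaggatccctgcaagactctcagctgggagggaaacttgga
Cyp3a57: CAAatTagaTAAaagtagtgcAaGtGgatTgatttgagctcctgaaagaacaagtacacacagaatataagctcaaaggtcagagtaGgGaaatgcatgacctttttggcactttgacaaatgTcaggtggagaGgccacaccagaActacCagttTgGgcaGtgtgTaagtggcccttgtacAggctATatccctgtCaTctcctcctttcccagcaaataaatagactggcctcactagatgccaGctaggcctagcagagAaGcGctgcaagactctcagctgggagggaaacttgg

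The widest difference at close to 90% identity was that of Cyp2d9 and Cyp2d11. Their windows share 267 of 300 bases, with 188 TPM for Cyp2d9 against 0.195 TPM for Cyp2d11, a 963-fold ratio. That ratio rests on 11.6 and 9.27 expected counts of Cyp2d11, of whose 100-base windows 12.2% occur in another gene, mostly in Cyp2d10. The RefSeq start of Cyp2d9 lies 43 bases from the annotated start of its most abundant transcript. The windows are those of Cyp2d9 (chr15:82452127-82452426, plus strand) and Cyp2d11 (chr15:82393973-82394272, minus strand), with capitals for the bases of Cyp2d11 that differ from Cyp2d9 or are inserted. Bases of Cyp2d9 that are missing from Cyp2d11 are not marked.
Cyp2d9: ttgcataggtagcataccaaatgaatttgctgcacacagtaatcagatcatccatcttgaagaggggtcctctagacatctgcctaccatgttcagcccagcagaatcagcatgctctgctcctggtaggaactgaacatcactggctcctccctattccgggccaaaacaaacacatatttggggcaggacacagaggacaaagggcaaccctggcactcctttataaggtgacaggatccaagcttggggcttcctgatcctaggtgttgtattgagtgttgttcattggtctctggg
Cyp2d11: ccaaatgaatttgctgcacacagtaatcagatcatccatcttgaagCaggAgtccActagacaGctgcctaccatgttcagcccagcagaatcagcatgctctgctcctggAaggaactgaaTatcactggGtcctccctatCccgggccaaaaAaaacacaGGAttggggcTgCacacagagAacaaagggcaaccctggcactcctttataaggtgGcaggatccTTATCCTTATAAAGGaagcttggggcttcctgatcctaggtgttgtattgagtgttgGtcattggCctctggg

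Other pairs with close promoters had closer levels. Cyp2a4 and Cyp2a5 share 294 bases and differed 1.34-fold, Cyp2c68 and Cyp2c69 share 277 bases and differed 1.87-fold, and Cyp3a44 and Cyp3a16 share 284 bases and differed 3.96-fold. The annotated start in RefSeq may differ from the start used in newborn liver, which was not measured here.

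**Figure D4:**
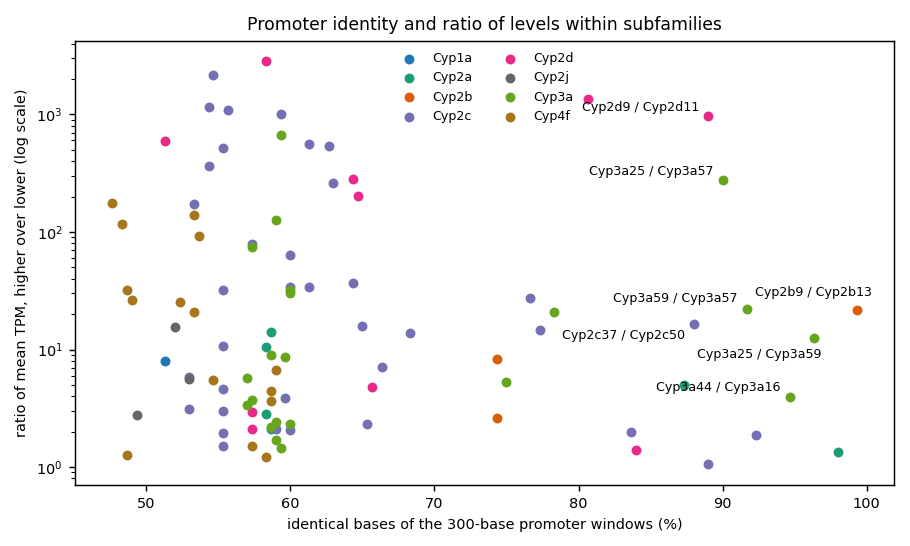
Identical bases of the 300-base promoter windows (horizontal axis, percent) against the ratio of mean TPM of the higher over the lower member (log axis), for the 95 pairs within a subfamily whose lower member has a mean TPM of at least 0.1, coloured by subfamily. Pairs at 90% identity or more lie between 1.34-fold and 276-fold.

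Short motifs were looked for on both strands of the 69 promoter windows of the 62 members, with no claim that a match is a working site. TATAAA was present in 27 windows (39.1%), against 13.6% of 32851 mouse promoter windows. The DR1 element, a direct repeat bound by HNF4-alpha and by PPAR-alpha with RXR, matched with at most 2 mismatches in 12 windows (17.4%), against 3.86% of all windows. They belonged to Cyp2c29, Cyp2d9, Cyp2d10, Cyp2d40, Cyp2t4, Cyp2w1, Cyp3a25, Cyp3a57, Cyp3a59, Cyp4f16 and Cyp4f37, of which 5 were detected. Cyp4a10, Cyp4a14 and Cyp4a31 were among the members without a matched window, so they were not searched. GCGTG, the core of the AhR element, was present in 14 windows (20.3%), against 32.4% of all windows. These belonged to Cyp1a1, Cyp1b1, Cyp2b10, Cyp2c68, Cyp2j9, Cyp2j12, Cyp2j13, Cyp2r1, Cyp2w1, Cyp4f14, Cyp4f16, Cyp4f39 and Cyp4v3. No match was found for Cyp1a2, while Cyp2j12, Cyp2j13 and Cyp2w1 had no counts. Copies in a cluster share sequence, so these windows are not independent.

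Most detected members gave 1 main transcript. In the annotation used by the authors, 25 of the 44 detected members have 1 transcript and 19 have several. Among those 19 the leading transcript held a median of 87.7% of the gene's TPM, and it was the same transcript in both livers for all 19. The 25 with 1 transcript could not differ. All 44 leading transcripts are annotated as protein-coding, which the annotation alone fixes for those 25. In 10 members at least 10% of TPM was assigned to transcripts not annotated as protein-coding. Cyp3a25 was the most abundant of these, with 77.6 TPM (pup 1) and 101 TPM (pup 2) on a transcript annotated for nonsense-mediated decay, beside 167 and 201.5 TPM on its main coding transcript. For Cyp2r1 the share on such transcripts was 41.2% and for Cyp2c70 it was 26.5% (means of both livers). The leading transcript held under 50% only in Cyp4f16 (40.6% ± 3.03) and Cyp4a31 (42.8% ± 0.0424).

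The livers of the littermates were compared member by member. Among the 45 members whose mean level was 1 TPM or higher, 0 differed by 2-fold or more with credible intervals that did not overlap, where 0.629% of the 12711 genes tested did (0.566% higher and 0.0629% lower in pup 2). At 1.5-fold there were 4 members (8.89%) against 1.47% of all genes. All 4 were higher in pup 2, where 0.999% of all genes were. With 1 library per pup these differences have no replicate check, and an exact sign permutation over 2 livers cannot give a p below 0.5, so none is given.

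The 4 members were Cyp1a1, Cyp3a59, Cyp2c67 and Cyp2b10, with log2((pup 2 TPM + 1)/(pup 1 TPM + 1)) of 0.70, 0.65, 0.60 and 0.59, which makes differences of weakly expressed genes look smaller. Cyp1a1 had 172 and 339 counts, a ratio per depth of 2.00 with a 95% counting interval of 1.66 to 2.42. Cyp2b10 had 195 and 328 counts, a ratio of 1.71 with an interval of 1.43 to 2.05. Cyp3a59 had a ratio of 1.65 (1.53 to 1.77) and Cyp2c67 of 1.62 (1.44 to 1.82). Each of these intervals covers counting error only. Among all genes at a mean of 1 to 10 TPM the SD of the log2 ratio between the livers was 0.36 and the central 95% of genes reached up to 0.52. At 10 to 100 TPM the SD was 0.28 and the limit 0.32, and at 100 to 1000 TPM they were 0.19 and 0.27. Above the limit for their level lay 11 of the 45 members, and 0 lay below the lower limit. Beside the 4 chosen at 1.5-fold, which had to lie above it, these were Cyp1a2, Cyp2c37, Cyp2c40, Cyp2c68, Cyp2c69, Cyp3a11 and Cyp3a25.

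Small differences in the same direction were common. Of the 45 members 34 were higher in pup 2 (75.6%) and 11 were lower, where 36.6% of all genes were higher. The median log2 ratio was 0.12 for the members and -0.05 for all genes. The direction depends on the scaling: with the ERCC spike-ins, which had 163 counts in pup 1 and 190 in pup 2, the members' median turned to -0.089 and that of all genes to -0.25, and 14 of 45 members were higher, against 9.02% of all genes. The distance of the members from all genes was 0.17 on TPM and 0.16 on the spike-ins. The spike-in counts are few, so the shift they give is imprecise. Its counting error was not carried into the spike-in values given here and below.

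Credible intervals did not overlap for 21 members that were higher in pup 2 and for 1 that was lower (Cyp2j5), against 6.27% of all genes higher and 13.8% lower (20.1% in either direction). Among the 31 members at a mean of 10 TPM or more these counts were 18 and 1, where 9.39% of all genes at that level were higher and 18.9% lower. Under the spike-in scaling 11 members were higher and 16 lower, with 1.45% and 49.0% of all genes.

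By subfamily, all 9 detected Cyp2c members were higher in pup 2, 8 of them with intervals apart, with a median log2 ratio of 0.28 (0.07 with the spike-ins). Both Cyp1a genes were higher, with a median of 0.64 (0.51 with the spike-ins). Cyp1a2 was at 17.9 and 27.1 TPM, a count ratio per depth of 1.55 (1.44 to 1.67). For Cyp3a 5 of 7 were higher, with a median of 0.12 that turned to -0.06 with the spike-ins. The 4 detected Cyp4a genes had a median of 0.02, or -0.19 with the spike-ins. In all, 14 members were higher in pup 2 under each of 5 scalings, namely Cyp1a1, Cyp1a2, Cyp2b10, Cyp2c37, Cyp2c40, Cyp2c50, Cyp2c67, Cyp2c68, Cyp2c69, Cyp2c70, Cyp3a11, Cyp3a25, Cyp3a59 and Cyp4b1, and 5 were lower under each. Of all genes 8.87% were higher and 46.6% lower under each of them. In the same libraries all 6 muscle and all 6 pancreas markers were at least 2-fold higher in pup 2, as were both lung markers with a mean of 1 TPM or more, while the summed hepatocyte markers had a ratio of 0.960 (pup 2 over pup 1) and those of bile duct 0.720. Their part in these differences was not tested.

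**Figure D5:**
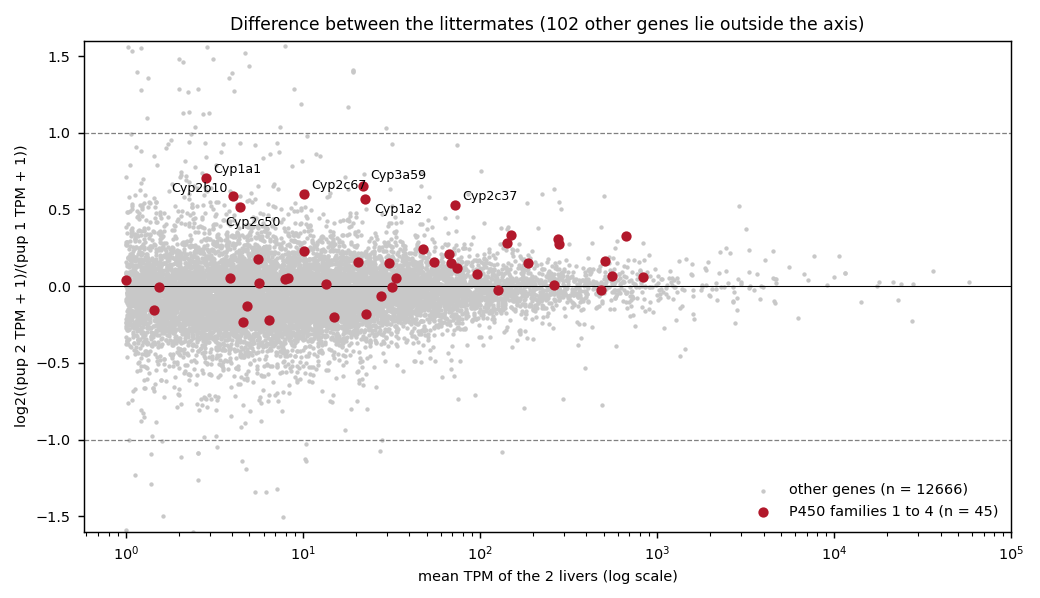
Mean TPM of both livers (log axis) against the log2 ratio of pup 2 over pup 1 with 1 TPM added, for 45 members (red) and 12666 other genes (grey) at a mean TPM of 1 or more; dashed lines mark 2-fold, and 102 other genes lie outside the axis. All members lie within the dashed lines, from -0.23 to 0.70, and 34 of 45 lie above 0.

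The partners and regulators of these enzymes were present. Of all protein-coding genes, 52.9% were detected. All 8 listed redox partners and heme-supply genes were detected, led by cytochrome b5 (Cyb5a) at 1545 TPM (pup 1) and 1623 TPM (pup 2), the heme-binding P450 partner Pgrmc1 at 326 and 348 TPM, and P450 reductase (Por) at 266 and 262 TPM. Of 20 regulators 18 were detected, led by Ppara, the stress regulator Nfe2l2 at 51.6 and 51.8 TPM and CAR (Nr1i3) at 46.4 and 43 TPM. PXR (Nr1i2) was at 12.1 and 12.7 TPM. By the rule used for the members, 0 of the 26 of these genes with a mean of 1 TPM or more were at least 2-fold apart between the livers, against 0.629% of all genes. Of the P450 genes outside families 1 to 4, 8 of 21 were detected, led by the bile acid enzymes Cyp8b1 at 126 and 114 TPM, Cyp39a1 at 48.5 and 50.5 TPM, and Cyp7a1 at 37.2 and 17.2 TPM. Cyp7a1, which sets the rate of bile acid production, was the only one of them at least 2-fold apart, and was lower in pup 2.

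Lists named for adult liver were compared by counts alone. They were chosen with earlier results of these data known and are not independent evidence. As background, 52.9% of all protein-coding genes were detected. All 9 genes known as female-predominant in adult liver were detected, with a median of 33.4 TPM, led by Cyp3a41a, Cyp2c69 and Cyp2c40. The detection of Cyp3a41b, at 2.12 and 1.19 TPM, is uncertain because 88.2% of its windows occur in Cyp3a41a. Of the 4 known as male-predominant 3 were detected, and the median over all 4 was 3.67 TPM. The detected genes were led by Cyp2d9, with Cyp4a12a at 4.95 and 6.61 TPM and Cyp4a12b at 1.56 TPM in both. Of 6 genes listed as PXR and CAR targets 4 were detected (Cyp3a11, Cyp2b9, Cyp2b10 and Cyp2b13), while Cyp2c29 and Cyp2c55 were not. Cyp2b9 and Cyp2b13 are also counted in the female-predominant list, and their response to PXR or CAR was not tested. Of 5 AhR targets 4 were detected, and all 12 PPAR-alpha targets were, with a median of 109 TPM. Of 9 pericentral genes 7 were detected, led by Cyp2e1, Rgn and Glul, and all 8 periportal genes were, led by Alb.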

How the data were processed

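Total RNA-seq of 1 newborn liver per library was analysed for 2 littermates. The authors deposited, for each library, gene and transcript tables on mm10 with GENCODE M4, per the file headers and notes; which aligner and counter were run was not given in the sources used here. Estimated reads, the deposited expected counts of the authors, divide reads among matching genes and need not be whole. TPM values, deposited by the authors, scale reads by effective length (99 nt under the listed length) to a fixed total per table. FPKM values, deposited by the authors, served as an alternative. Isoform percent, deposited by the authors, is a transcript's share of its gene's TPM. The deposited score columns hold the authors' credible bounds of TPM, whose level the file headers do not give. They belong to a posterior mean estimate, and the TPM of 18 members in pup 1 and 20 in pup 2 lay outside them. The cited protocols do not settle how the cDNA was primed or whether strand was kept, so overlapping antisense reads cannot be told apart.

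The members and lists were chosen with earlier results of these data known. Symbols, biotypes and coordinates (counted from 1) came from GENCODE M21 on GRCm38 by Ensembl identifier. Detection required 1 TPM in both livers. Livers were compared on log2(TPM + 1) over all genes at a mean of 1 TPM or more, and gene pairs on log2(TPM + 0.1). Shared sequence was measured as 100-base windows of M21 transcripts found in another gene. Genes named in full were the 15 highest members, the highest of each detected subfamily, members 2-fold apart, the 5 on either side of the threshold and the fixed pairs, and of other lists the 3 highest and every gene 2-fold apart; others were named after their values were seen. The members' proteins were not compared here. Counting intervals are exact binomial at 95% and, like the floor of 3 counts, cover counting error only. Alternatives changed the scaling (TMM of edgeR 4.0.16, size factors of DESeq2 1.42.0, spike-ins), pseudocount, filters and unit, from expected counts rounded to whole numbers. R 4.3.3, Python 3.11.15, pandas 2.3.3, numpy 2.4.6, scipy 1.17.1, Biopython 1.88 and matplotlib 3.10.9 were used.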

Additional observations from a re-analysis of the deposited data

Results flagged for a closer look

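The rule on symbols left out 21 P450 gene rows of families 1 to 4, and 7 of these were above 1 TPM in both livers. They are listed because they lie outside the members described above, though Cyp3a41a, Cyp4a12a and Cyp4a12b were named there as genes of other lists. Cyp3a41a, a protein-coding gene of the Cyp3a cluster that is female-predominant in adult liver, had a mean of 184.8 TPM (206 in pup 1 and 163 in pup 2), a level between those of Cyp2d9 and Cyp2c69. Its near copy Cyp3a41b had a mean of 1.66 TPM. The division of reads between these copies is uncertain, since 88.4% of the 100-base windows of Cyp3a41a occur in Cyp3a41b and 88.2% the other way. Cyp4a12a, a male-predominant fatty acid hydroxylase in adult mice, had 5.78 TPM and Cyp4a12b 1.56 TPM. The pseudogenes Cyp4b1-ps2, Cyp2d37-ps and Cyp2d41-ps had means of 9.23, 7.79 and 4.02 TPM.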

How the results depend on the processing

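No paired analysis was possible because the 2 livers form 1 group. The number of detected members stayed within 1.5 times under all 9 settings tried, and with both livers 83 of 85 gene-pair settings kept their side of the spread rule, the 2 exceptions being those of Cyp2a5 to Cyp2a4 given above. With 1 liver there is no SD and the rule could not be applied. Shares depended on the denominator. The members' share of 0.529% became 0.862% of expected counts, 0.583% over protein-coding genes and 0.618% without globin genes. In the same order family 2 moved from 0.255% to 0.361%, 0.281% and 0.298%, and family 4 from 0.151% to 0.278%, 0.167% and 0.177%. Family 3 moved from 0.120% to 0.219% of counts and 0.141% without globins, and family 1 from 0.00254% to 0.00412% of counts. In single livers the members held 0.501% and 0.557%, family 1 held 0.00200% and 0.00309%, family 2 0.241% and 0.269%, family 3 0.109% and 0.131%, and family 4 0.149% and 0.153%. Lowering the fold from 2 to 1.5 moved the members apart from 0 to 4 and all genes from 80 to 187. All genes at least 2-fold apart were 36 at a mean of 5 TPM or more and 159 without the condition on intervals. With spike-in scaling the members' median log2 ratio reversed to -0.089, and members with intervals apart became 11 higher and 16 lower, in place of 21 and 1. With TMM 0 were lower. The 6 settings of these interval counts were added after seeing the data. The median share of the leading transcript was 84.4% by posterior means, and 87.5% and 88.6% in single livers. The cause of these shifts was not tested. Depth limits statements on the 10 members at 0 counts to the bounds given, and n = 2 limits every SD.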
